A study of Mus musculus with 21 samples.

Results

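The transcripts described here belong to 38 genes of the cell division cycle, out of 55487 genes in the count table. They were taken from a list of symbols by a rule that uses no measured value, though the list was drawn up with earlier results of these data known, and fall into 5 roles. There are 11 genes of replication licensing and origin firing, 3 of nucleotide supply, 8 G1 cyclins and their kinases, 5 inhibitors and members of the RB-E2F switch, and 11 genes of G2 and mitosis. All 38 had a row in the table, and 29 had enough counts to be tested.

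The libraries are bulk RNA-seq of microglia, the resident macrophages of the brain, sorted from the striatum of male mice aged 8 to 10 weeks. Tissue was digested with papain, libraries were made by a modified Smart-Seq2 protocol, and the sort kept live cells that were CD11b positive, CD45 low and P2RY12 positive. Control offspring (CON) were compared with offspring of dams given maternal immune activation (MIA), and each kind received either saline (SAL) or bacterial lipopolysaccharide (LPS). LPS was injected into the peritoneum at 4500 endotoxin units per gram of body weight, and cells were taken 18 hours after either injection. The strain, the agent that activated the dams and the litters were not given in the sources used here. The fit used 20 libraries, with saline in 6 of control and 5 of MIA offspring and LPS in 5 of control and 4 of MIA offspring. A further MIA saline library that its title marks as excluded was left out. Labels hold an ID number that some libraries share, always within control or within MIA offspring and often across saline and LPS. What a shared number stands for was not given. Because litters are not given, p-values measure the spread between these libraries.

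A cell that leaves rest raises D-type cyclins, which with CDK4 and CDK6 phosphorylate the retinoblastoma protein RB and free E2F factors to switch on replication genes. The MCM helicase is loaded onto origins by CDC6 and CDT1, and is started by CDC45 and the GINS complex. Later the mitotic kinases CDK1, PLK1 and the Aurora kinases, with their cyclins, drive chromosome condensation and separation. Adult microglia are long-lived cells that mostly rest and can divide when challenged.

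Depth and cell identity bear on every value below. The 19 fitted libraries of batch 1 held 9.85 M to 19 M estimated counts, and a ribosomal RNA gene took 43% to 53.8% of each. MIA LPS replicate 4 is the sole library of batch 2, had counts for 12264 genes against at least 17995 in the other fitted libraries, and stood apart for many genes. A batch term in the fit took it up, so that the fitted group levels rest on the other 19 libraries. Group means here are of batch 1. The library still entered the scaling and the choice of genes with enough counts to test. Without it 15141 genes were tested, against 14741. In control offspring 3279 genes were then called higher and 3306 lower after LPS, against 3439 and 3141. Of 10 microglial markers, 9 were called lower after LPS in control and in MIA offspring, P2ry12 among them, and the summed level of the 10 went from 12900 to 17700 CPM (counts scaled to a common library total) in control saline to 5050 to 6440 CPM in control LPS. The summed level of 8 monocyte markers was 3.95 to 6.59 CPM in control saline and 52.4 to 110 CPM in control LPS, and that of 10 neutrophil markers was 0 to 19.6 CPM and 48.9 to 115 CPM. Of the 8 monocyte markers, 7 were called higher and 1, Ccr2, was called lower after LPS in each kind of offspring. In MIA offspring the monocyte sum was 3.16 to 5.94 CPM after saline and 41.7 to 84 CPM after LPS in batch 1. The neutrophil sum there was 0 to 0.321 CPM and 37.5 to 108 CPM, and MIA LPS replicate 4 stood at 218 CPM for monocyte and 379 CPM for neutrophil markers. Summed lymphocyte markers were at 7.64 to 13.4 CPM in control saline, 5.09 to 9.92 CPM in control LPS and 31.6 CPM in MIA LPS replicate 4, with Cd3e, Cd3g and Nkg7 at 0 in all libraries. The part of these other cells in the changes described below was not tested. In bulk RNA, fewer cells of a type and less RNA per cell cannot be told apart.

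After LPS, several replication genes, the CDK inhibitor gene Cdkn1a and the cyclin D2 gene rose in both kinds of offspring, while the cyclin D3 gene, Rb1 and the proliferation marker Mki67 fell. Of the 29 tested members, 8 were called higher (27.6%, beside 23.3% of all 14741 genes tested) and 5 lower (17.2%, beside 21.3%). In MIA offspring 10 of 29 were called higher (34.5%, beside 20.8% of all genes) and 3 lower (10.3%, beside 18.3%). A call is an adjusted p under 0.05 in edgeR's quasi-likelihood test, adjusted over all genes tested. The median log2 fold change of the 29 members was 0.35 in control and 0.43 in MIA offspring, beside 0.00 and 0.02 for all genes. Read against those backgrounds, the members as a whole were called about as often as other genes. Counts by role rest on 2 to 10 tested genes each, and differences between roles were not tested.

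**Figure D1:**
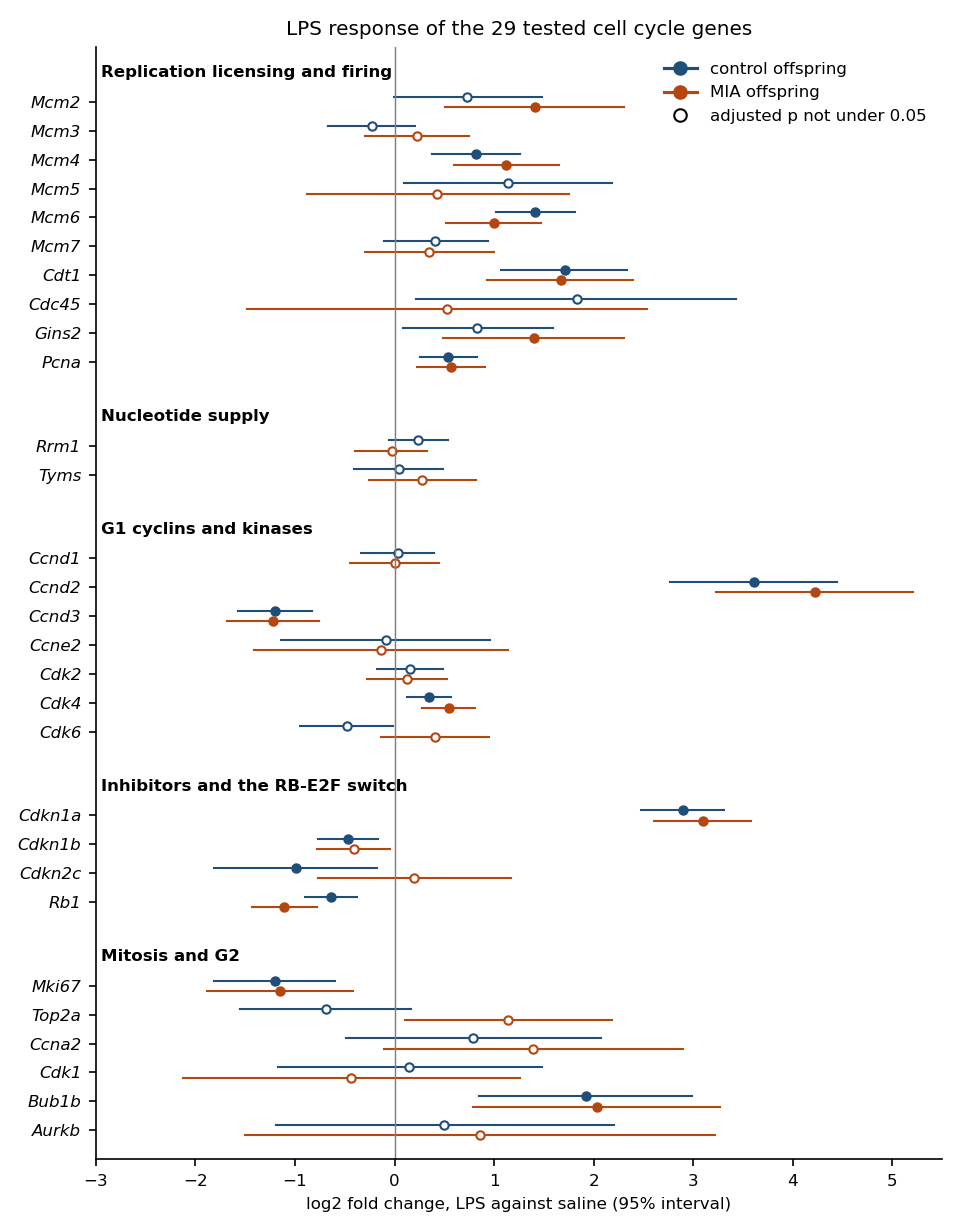
Log2 fold change of each tested member, LPS against saline, in control (blue) and MIA (orange) offspring, with 95% intervals from the edgeR fit. Filled points passed an adjusted p of 0.05. The replication genes lie mostly at or above 0, while Ccnd2 and Cdkn1a lie farthest to the right, and Ccnd3, Rb1 and Mki67 lie below 0 in both kinds of offspring.

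Of the replication licensing and firing genes, 4 of 10 tested were higher and 0 lower in control offspring (40% and 0%, beside 23.3% and 21.3% of all genes), with a median log2 fold change of 0.83. In MIA offspring 6 of 10 were higher and 0 lower (60% and 0%, beside 20.8% and 18.3%), with a median of 0.78. With so few genes, a count of 0 lower is not far from the background. The 4 genes called higher in control offspring (Mcm4, Mcm6, Cdt1 and Pcna) were also called in MIA offspring, where Mcm2 and Gins2 joined them. The count of 0 lower genes is that of edgeR, and at an unadjusted p under 0.05 there were 8 of 10 genes in control and 6 of 10 in MIA offspring, all with a positive log2 fold change, beside 7513 and 6903 of all 14741 genes in either direction.

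Mcm6 encodes a subunit of the replicative helicase. Its level in control saline libraries was 4.45 CPM at the lowest, 5.72 at the median and 6.12 at the highest. In the 5 control LPS libraries it was 13.4, 17.3, 10.2, 19.8 and 13.5 CPM. All control LPS libraries lay above all control saline libraries. In MIA offspring it was 4.12, 6.43, 4.19, 6.47 and 7.73 CPM after saline and 12, 10.1, 12.7 and, in the batch 2 library, 33.0 CPM after LPS. The MIA groups did not overlap either. The log2 fold change was 1.41 ± 0.19 (SE, edgeR adjusted p = 6.45e-07) in control and 1.00 ± 0.22 (adjusted p = 7.40e-04) in MIA offspring.

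Cdt1 encodes the licensing factor that loads the helicase with CDC6. Control saline libraries had 0.468 CPM at the lowest, 1.46 at the median and 1.69 at the highest, and control LPS libraries had 5.69, 4.81, 3.95, 3.28 and 3.29 CPM. In MIA offspring, saline libraries had 2.02, 0.964, 0.945, 1.72 and 2.26 CPM, and MIA LPS libraries 5.92, 4.48, 4.75 and, in batch 2, 14.9 CPM. Every LPS library was above every saline library of its kind of offspring. Cdt1 rose by 1.71 ± 0.30 on the log2 scale (edgeR adjusted p = 3.71e-05) in control and by 1.67 ± 0.35 (adjusted p = 3.58e-04) in MIA offspring.

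Pcna, the sliding clamp that holds the polymerase on DNA, had the highest level per length of the 38 members in control saline libraries, at a mean of 11.8 CPM per kb of exon. Lengths here merge all exons annotated for a gene, and a transcript in use can be shorter. Order between genes depends on that choice, and Ccnd3 was close at 11.6 CPM per kb. Pcna levels were 25.8, 26.7 and 36.3 CPM at the lowest, median and highest of control saline, and 50.7, 35.5, 41.9, 40.3 and 38.5 CPM in control LPS. Control saline replicate 4, at 36.3 CPM, reached into the control LPS range. With MIA, saline libraries had 26.5, 40.4, 27.4, 28.8 and 26.7 CPM and MIA LPS libraries 42.4, 38.9, 52.2 and, in batch 2, 31.3 CPM, so that MIA saline replicate 2 overlapped them. Pcna rose by 0.54 ± 0.13 on the log2 scale in control (edgeR adjusted p = 0.00157) and by 0.57 ± 0.16 in MIA offspring (adjusted p = 0.0054). Without MIA LPS replicate 3 the MIA value was 0.44 and was not called.

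Mcm2, another helicase subunit, was called in MIA offspring, where it went from 2.37, 1.69, 0.743, 2.34 and 0.999 CPM after saline to 7.36, 2.46, 3.17 and, in batch 2, 4.44 CPM after LPS. All LPS libraries of MIA offspring were above all saline libraries, with replicate 1 the highest. The log2 fold change was 1.41 ± 0.42 (edgeR adjusted p = 0.0097), and 0.80 without MIA LPS replicate 1, where it was no longer called. In control offspring Mcm2 stood at 2.48 ± 0.681 CPM after saline (SD, n = 6) and 4.11 ± 1.74 CPM after LPS (n = 5), a log2 fold change of 0.73 ± 0.35 that was not called (adjusted p = 0.0898).

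Mcm4, also of the helicase, was at 3.22, 4.30 and 5.76 CPM at the lowest, median and highest of control saline and at 4.82, 7.70, 7.99, 8.18 and 9.54 CPM in control LPS, with replicate 1 inside the saline range. The MIA libraries went from 5.43, 4.42, 4.52, 2.89 and 3.53 CPM after saline to 9.98, 8.61, 8.58 and, in batch 2, 12.2 CPM after LPS, with no overlap. Mcm4 rose by 0.82 ± 0.21 in control and 1.12 ± 0.24 in MIA offspring on the log2 scale (edgeR adjusted p = 0.00207 and 6.03e-04). Gins2, a subunit of the GINS complex, was at 0.701, 2.17, 2.57, 3.24 and 2.20 CPM in MIA saline and at 9.30, 2.97, 5.22 and, in batch 2, 0 CPM in MIA LPS libraries. MIA LPS replicate 2 lay within the saline range. Gins2 was called in MIA offspring at 1.40 ± 0.43 (adjusted p = 0.0108) and stood at 0.83 ± 0.35 in control offspring (adjusted p = 0.0578). Its value without MIA LPS replicate 1 was 0.90, and with no batch term 1.01, and neither was called. Of its exon length, 67.3% is shared with Gse1 on the opposite strand, and Smart-Seq2 in its standard form does not mark strand, so reads of such pairs cannot be told apart. In all, 14 of the 38 members share exon bases with a gene of the opposite strand in GENCODE M21. Gse1 itself had a log2 fold change of -0.40 in control and -0.56 in MIA offspring.

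The other helicase and firing genes were not called by edgeR as fitted here, though some were under other settings. Mcm3 had -0.23 ± 0.21 in control and 0.23 ± 0.25 in MIA offspring, and Mcm7 0.41 ± 0.25 and 0.35 ± 0.30. Mcm5 had 1.14 ± 0.49 in control (edgeR adjusted p = 0.0615) and 0.43 ± 0.62 in MIA offspring. Cdc45, whose product travels with the helicase, had 1.83 ± 0.76 (adjusted p = 0.0516) and 0.53 ± 0.94. Its value rested on 37 counts over the 6 control saline libraries and 105 over the 5 control LPS libraries, with control saline replicate 1 the highest of its group at 1.41 CPM. Without that library the control value was 3.04 and was called, as it was at 2.75 with the ID number as a random block and at 3.33 by limma-voom. Cdc45 shares 5.96% of its exon length with Ufd1 on the opposite strand, which had 0.83 in control and 0.69 in MIA offspring. Ufd1 averaged 14.0 CPM over batch 1, against 0.673 CPM for Cdc45, and the part of shared reads was not tested. Mcm5 in control offspring was called at 1.38 without control LPS replicate 5 and at 1.32 without control saline replicate 5, and Mcm7 in MIA offspring at 0.74 without MIA LPS replicate 2. Summed over Mcm2 to Mcm7, the level was 33.6 ± 3.61 CPM in control saline (SD, n = 6) and 48.6 ± 7.67 CPM in control LPS (n = 5), with every LPS library above every saline library. In MIA offspring it was 29.8 ± 3.53 CPM (n = 5) and 46.9 ± 12.8 CPM (n = 3), where the lowest LPS library at 33.3 CPM was below the highest saline library at 34.9 CPM.

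Cdc6, the loading factor that works with CDT1, was too low to be tested. It had 21 counts over 6 control saline libraries, 12 over 5 control LPS libraries, 15 over 5 MIA saline libraries and 0 over the MIA LPS libraries. The mean of 0.215 CPM in MIA saline was 2.93-fold a floor of 3 counts over the MIA LPS group in batch 1, which is 0.0735 CPM. The 5 MIA saline libraries ran from 0 to 0.402 CPM. With no filter on low counts edgeR did not call Cdc6 in MIA offspring (log2 fold change -4.66, adjusted p = 0.0548). Floors cover counting error only, since reads counted without molecular identifiers are not independent molecules.

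The nucleotide supply genes were not called. Rrm1, the large subunit of ribonucleotide reductase, was at 16.8 ± 1.53 CPM in control saline (SD, n = 6) and 19.8 ± 3.6 CPM in control LPS (n = 5), a log2 fold change of 0.24 ± 0.14 (edgeR adjusted p = 0.17). Tyms, thymidylate synthase, had 0.04 ± 0.21 in control and 0.28 ± 0.25 in MIA offspring. Rrm2, the small reductase subunit that cycling cells make in S phase, was untested, with 27 counts in control saline and 23 in control LPS. The 95% interval of the Rrm1 change in control offspring ran from -0.06 to 0.54.

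**Figure D2:**
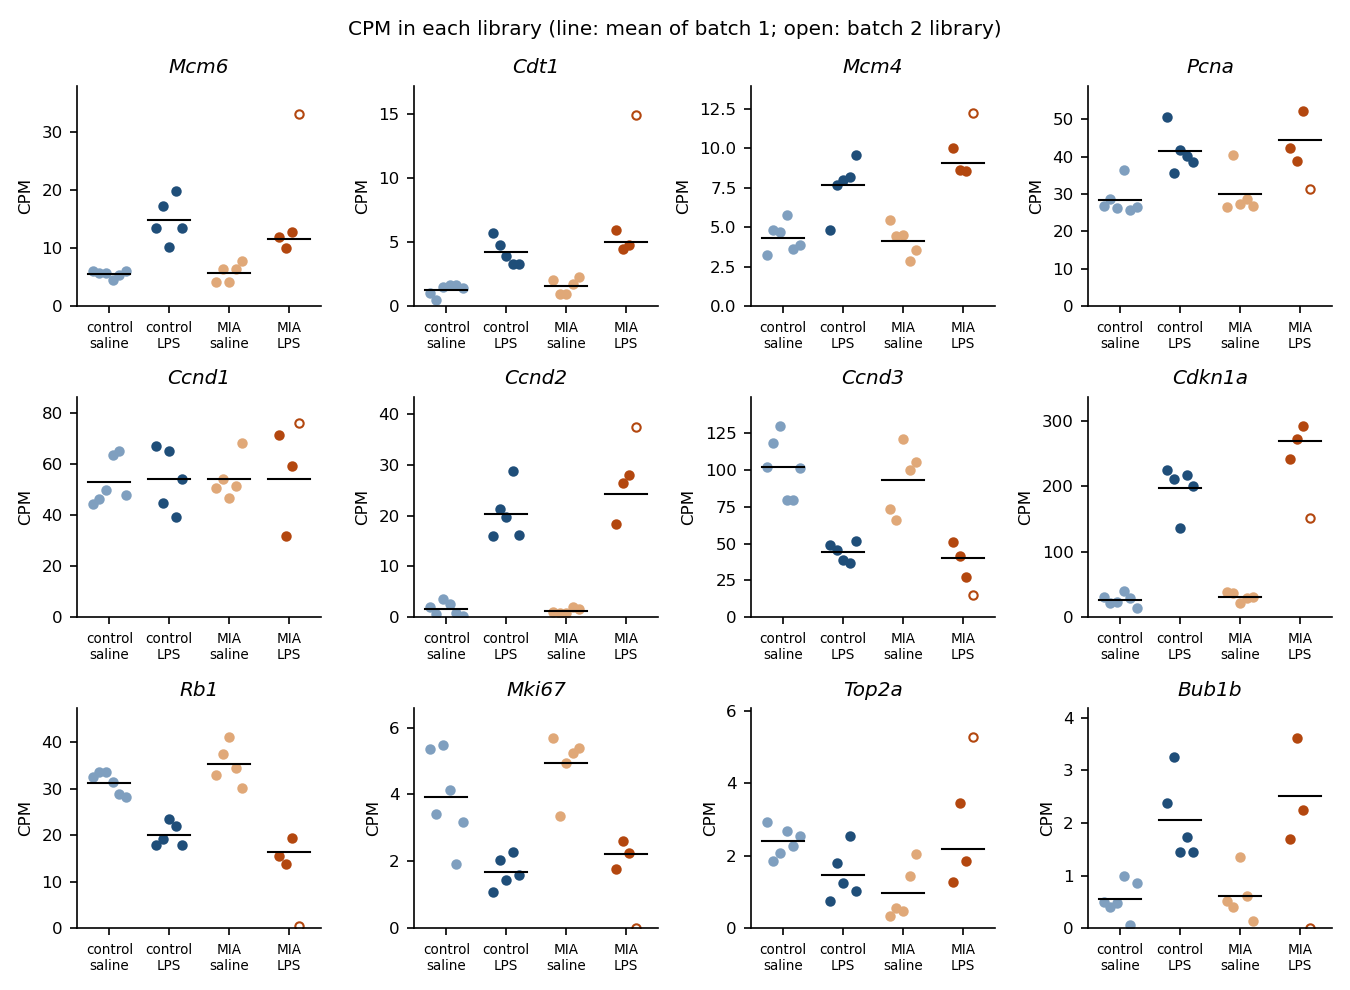
CPM of 12 members in each library, by group, with the mean of the batch 1 libraries as a line and the batch 2 library as an open circle. Axes are linear and start at 0. Mcm6, Cdt1, Ccnd2, Cdkn1a and Bub1b are higher in all LPS libraries of batch 1 than in the saline libraries, Ccnd3 and Rb1 are lower, and the Ccnd1 groups overlap.

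Among the G1 cyclins and kinases, 2 of 7 tested genes were higher and 1 lower in each kind of offspring (28.6% and 14.3%). These shares stand beside 23.3% and 21.3% of all genes in control and 20.8% and 18.3% in MIA offspring, and are near them. Ccnd2, cyclin D2, had the largest change of the tested members. It was at 0.232 CPM at the lowest, 1.42 at the median and 3.68 at the highest in control saline, and at 16.0, 21.3, 19.8, 28.8 and 16.1 CPM in control LPS. MIA offspring had it at 0.964, 0.803, 0.878, 2.07 and 1.67 CPM after saline and at 18.4, 26.3, 28.0 and, in batch 2, 37.5 CPM after LPS. The lowest LPS library was thus above the highest saline library by a wide margin in both. Ccnd2 rose by 3.61 ± 0.39 on the log2 scale (edgeR adjusted p = 2.24e-07), or 12.2-fold, in control and by 4.22 ± 0.47 (adjusted p = 3.92e-07), or 18.7-fold, in MIA offspring.

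Ccnd3, cyclin D3, moved the other way. It was at 79.2 CPM at the lowest, 102 at the median and 130 at the highest in control saline, and at 49.3, 45.6, 38.6, 37.0 and 51.4 CPM in control LPS. Those of MIA offspring had 73.4, 66.2, 121, 99.7 and 105 CPM after saline and 50.9, 41.4, 27.5 and, in batch 2, 15.1 CPM after LPS. All LPS libraries were below all saline libraries of either kind of offspring. Ccnd3 fell by 1.20 ± 0.17 on the log2 scale in control (edgeR adjusted p = 3.42e-06) and by 1.22 ± 0.21 in MIA offspring (adjusted p = 5.95e-05).

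Ccnd1, cyclin D1, was not called in either kind of offspring. It was at 44.6, 49.0 and 65.2 CPM at the lowest, median and highest of control saline and at 67.1, 44.9, 65.3, 39.2 and 54.2 CPM in control LPS. Among MIA offspring, saline libraries had 50.6, 54.1, 46.9, 51.6 and 68.3 CPM and MIA LPS libraries 71.6, 32.0, 59.3 and, in batch 2, 76.3 CPM, and the groups overlapped throughout. The log2 fold change was 0.03 ± 0.17 in control, with a 95% interval from -0.34 to 0.40. In MIA offspring it was 0.00 ± 0.21, with an interval from -0.45 to 0.45. Ccnd1 shares 23.4% of its exon length with LTO1 on the opposite strand, which had -0.10 in control and 0.35 in MIA offspring. LTO1 averaged 11.6 CPM over batch 1, against 53.8 CPM for Ccnd1, and the part of shared reads was not tested.

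Per kb of exon, the D cyclins can be set beside each other only roughly. The merged lengths of all annotated exons were 4709 bases for Ccnd1, 9409 for Ccnd2 and 8775 for Ccnd3. A transcript in use can be shorter, so shares between these genes depend on this choice of length. In control saline libraries Ccnd1 made up 49.0 ± 8.55%, Ccnd2 0.751 ± 0.572% and Ccnd3 50.3 ± 8.52% of their summed CPM per kb (SD, n = 6). In control LPS libraries the shares were 60.8 ± 6.28%, 12 ± 4.7% and 27.2 ± 3.76% (n = 5). In MIA offspring the Ccnd2 share went from 0.602 ± 0.232% (n = 5) to 14.6 ± 5.59% (n = 3), and the Ccnd3 share from 47.2 ± 7.1% to 25.0 ± 8.09%. Neither share overlapped between saline and LPS in batch 1. The sum of all 3 genes was 23.0 ± 1.6 CPM per kb in control saline and 18.7 ± 2.44 in control LPS, with ranges of 21.3 to 25.9 and 15.6 to 21.6. Ccnd2 was the lowest of the 3 in every library of batch 1, and in the batch 2 library it took 18.2%, above Ccnd3 at 7.86%.

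**Figure D3:**
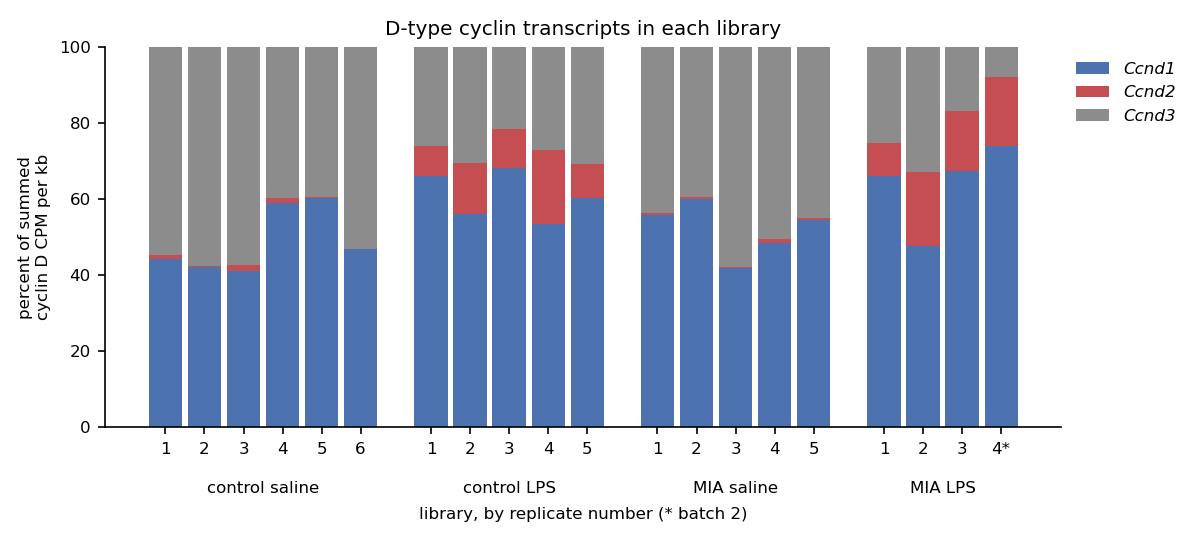
Share of Ccnd1, Ccnd2 and Ccnd3 in their summed CPM per kb of exon, in each library by group and replicate number, with the batch 2 library starred. Ccnd2 takes 0.114 to 1.51% of the sum in control saline libraries and 7.87 to 19.6% in control LPS libraries, while the Ccnd3 part shrinks.

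Cdk4, the kinase partner of D cyclins, was at 26, 31.6 and 33.3 CPM at the lowest, median and highest of control saline and at 37.7, 35.8, 40.1, 43.3 and 36.5 CPM in control LPS. Those of MIA offspring were at 32.6, 31.2, 30.4, 27.1 and 26.3 CPM after saline and at 41.4, 41.4, 46.4 and, in batch 2, 77.9 CPM after LPS. All LPS libraries were above all saline libraries, by a small step. Cdk4 rose by 0.35 ± 0.11 on the log2 scale in control (edgeR adjusted p = 0.00862) and by 0.55 ± 0.13 in MIA offspring (adjusted p = 0.00103). It shares 19.7% of its exon length with Tspan31 on the opposite strand, which had a log2 fold change of 0.17 in control and 0.19 in MIA offspring. With no batch term Cdk4 was not called in control offspring.

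Cdk6, the other partner of D cyclins, was not called in either. All 5 control LPS libraries, at 62.1 to 89.9 CPM, lay below all 6 control saline libraries, at 97.2 to 124 CPM, and the log2 fold change was -0.48 ± 0.22 (edgeR adjusted p = 0.0757, and called by DESeq2 at -0.56). The MIA value was 0.41 ± 0.26 (adjusted p = 0.226) and rested on replicate 2 at 255 CPM, with -0.33 without that library. Members of this role called lower in control offspring were 2, against 1 as fitted here, with RLE scaling, DESeq2, limma-voom or the 2 groups alone. They were also 2 without MIA LPS replicates 2 or 3. Without MIA LPS replicate 3 the role had 3 members called higher in MIA offspring, against 2. Cdk2, the kinase of cyclin E, had 0.16 ± 0.16 and 0.12 ± 0.19, and the cyclin E2 gene Ccne2 had -0.09 ± 0.49 and -0.14 ± 0.60, each with overlapping groups. Ccne2 shares 17.4% of its exon length with Ints8 on the opposite strand, which had -0.28 and -0.07. Ints8 averaged 15.6 CPM over batch 1, against 0.97 CPM for Ccne2, and the part of shared reads was not tested.

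Ccne1, cyclin E1, which drives entry into S phase with CDK2, fell under the filter for low counts. It had 2 counts, in 1 of 6 control saline libraries, and 27 counts spread over all 5 control LPS libraries. In MIA offspring it had 0 counts in the 5 saline libraries and 13 counts in the 3 LPS libraries of batch 1. The mean of 0.301 CPM there was 6.85-fold the floor of 3 counts over the MIA saline group, which is 0.0439 CPM. With no filter on low counts edgeR called it in control (adjusted p = 0.0189) and in MIA offspring (adjusted p = 0.00942), and its level stayed far below that of the D cyclins.

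The inhibitors and the RB-E2F switch split by gene. In control offspring 1 of 4 tested genes was higher and 3 lower (25% and 75%, beside 23.3% and 21.3% of all genes). The median there was -0.56. In MIA offspring 1 was higher and 1 lower (25% each, beside 20.8% and 18.3%), with a median of -0.11. These shares rest on 4 genes, and the Cdkn2c call was lost in several alternatives given below. Cdkn1a encodes p21, an inhibitor of cyclin-CDK complexes that also binds PCNA. Its level was 14.9, 26 and 39.8 CPM at the lowest, median and highest of control saline and 225, 211, 137, 217 and 201 CPM in control LPS. In MIA offspring saline libraries had 39.4, 36.9, 21.2, 29.4 and 30.7 CPM and MIA LPS libraries 242, 273, 292 and, in batch 2, 151 CPM. The lowest LPS library was above the highest saline library by a wide margin in each kind of offspring. Cdkn1a rose by 2.90 ± 0.20 on the log2 scale (edgeR adjusted p = 1.82e-11), or 7.44-fold, in control and by 3.10 ± 0.23 (adjusted p = 1.44e-10), or 8.55-fold, in MIA offspring. By CPM per kb Cdkn1a stood at 7.5 in control saline, behind 6 other members, and at 55.8 in control LPS, ahead of all others.

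Rb1, which encodes the RB protein that holds E2F factors, was at 28.1, 32.0 and 33.6 CPM at the lowest, median and highest of control saline and at 17.9, 19.2, 23.4, 22.0 and 18.0 CPM in control LPS. Levels in MIA offspring were 32.9, 37.5, 41.0, 34.5 and 30.1 CPM after saline and 15.6, 13.8, 19.5 and, in batch 2, 0.600 CPM after LPS. No LPS library reached a saline library. Rb1 fell by 0.64 ± 0.12 on the log2 scale in control (edgeR adjusted p = 1.09e-04) and by 1.11 ± 0.15 in MIA offspring (adjusted p = 1.90e-06). It shares 8.11% of its exon length with Rcbtb2 and 6.78% with Lpar6, both on the opposite strand. These neighbours stood at -2.40 and -0.79 in control and at -2.47 and -0.84 in MIA offspring. Rcbtb2 averaged 54.1 CPM and Lpar6 104 CPM over batch 1, against 27.0 CPM for Rb1. The part of shared reads in the Rb1 value was not tested. With no batch term Rb1 was not called in control offspring.

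Cdkn2c, which encodes the CDK4 and CDK6 inhibitor p18, was at 1.67, 2.75 and 2.82 CPM at the lowest, median and highest of control saline and at 0.650, 2.22, 0.415, 1.88 and 1.20 CPM in control LPS. In MIA offspring the levels were 1.58, 1.77, 0.810, 2.96 and 1.40 CPM after saline and 2.54, 2.39, 0.990 and, in batch 2, 8.88 CPM after LPS. The control groups overlapped in a single saline library, and the MIA groups overlapped throughout. The log2 fold change was -0.99 ± 0.38 in control (edgeR adjusted p = 0.0367) and 0.20 ± 0.46 in MIA offspring (adjusted p = 0.762). The control value was -0.81 to -1.29 when each library was left out in turn, and it was not called without control LPS replicates 1, 3 or 5, without control saline replicates 1, 2, 4, 5 or 6, or with no batch term.

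Cdkn1b, which encodes the inhibitor p27, was at 36.4, 38.7 and 45.3 CPM at the lowest, median and highest of control saline and at 32.1, 28.1, 22.6, 32.2 and 29.6 CPM in control LPS, all below saline. In MIA offspring it went from 34.6, 46.6, 39.6, 42.1 and 44.4 CPM to 43.5, 24.8, 25.2 and, in batch 2, 17.5 CPM, with replicate 1 inside the saline range. Cdkn1b fell by 0.47 ± 0.14 on the log2 scale in control (edgeR adjusted p = 0.0073) and had -0.41 ± 0.17 in MIA offspring (adjusted p = 0.0544), which was -0.73 and called without MIA LPS replicate 1. E2f1, the E2F factor of this switch, was untested with 9 to 23 counts over a group.

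The mitosis and G2 genes were low. In each kind of offspring 1 of 6 tested genes was higher and 1 lower (16.7% each, near the 23.3% and 21.3% of all genes in control and the 20.8% and 18.3% in MIA offspring), with medians of 0.33 in control and 1.00 in MIA offspring. The other 5 of the 11 were under the filter. In control saline libraries their levels ran from 0.034 CPM per kb for Bub1 to 0.389 for Mki67, against 0.0477 for Cdc6 to 11.8 for Pcna among the replication genes.

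Mki67 encodes Ki-67, the standard marker of cycling cells. Its level was 1.92, 3.78 and 5.49 CPM at the lowest, median and highest of control saline and 1.08, 2.04, 1.45, 2.28 and 1.60 CPM in control LPS. The control groups overlapped through the lowest saline library, replicate 5. MIA saline libraries had 5.70, 3.37, 4.93, 5.23 and 5.40 CPM and MIA LPS libraries 1.78, 2.60, 2.25 and, in batch 2, 0 CPM, all below saline. Mki67 fell by 1.20 ± 0.28 on the log2 scale in control (edgeR adjusted p = 0.00109) and by 1.15 ± 0.34 in MIA offspring (adjusted p = 0.00884). Its log2 fold change in control offspring was -1.35 to -1.07 when each library was left out in turn.

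Bub1b, which encodes the spindle checkpoint protein BUBR1, rose in both. Levels were 0.0583, 0.497 and 0.998 CPM at the lowest, median and highest of control saline and 2.38, 3.25, 1.45, 1.74 and 1.44 CPM in control LPS. For MIA offspring, saline libraries had 0.526, 0.402, 1.35, 0.620 and 0.133 CPM and MIA LPS libraries 1.69, 3.62, 2.25 and, in batch 2, 0 CPM. All LPS libraries of batch 1 were above all saline libraries. The rise was 1.92 ± 0.50 on the log2 scale (edgeR adjusted p = 0.0028) in control and 2.03 ± 0.58 (adjusted p = 0.00675) in MIA offspring, on 47 counts over control saline and 156 over control LPS libraries. With no batch term the MIA value was 1.64 and was not called.

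Top2a, the topoisomerase that untangles chromosomes in G2, was not called in either kind of offspring as fitted here. It was at 1.87, 2.41 and 2.94 CPM at the lowest, median and highest of control saline and at 0.758, 1.80, 1.25, 2.55 and 1.04 CPM in control LPS. In MIA saline libraries it was at 0.351, 0.562, 0.473, 1.45 and 2.06 CPM and in MIA LPS libraries at 1.27, 3.47, 1.85 and, in batch 2, 5.28 CPM. The saline and LPS groups overlapped in both kinds of offspring. The log2 fold change was -0.69 ± 0.40 in control (edgeR adjusted p = 0.172) and 1.14 ± 0.49 in MIA offspring (adjusted p = 0.0651). Without MIA LPS replicate 2 the latter was 0.65, and without MIA saline replicate 5 it was 1.61 and called, as it was at 1.41 without MIA LPS replicate 1, at 1.56 with no batch term and at 1.27 with the ID number as a random block.

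The remaining mitosis genes stayed near the limit of counting. Ccna2, the cyclin of S phase and G2, had 0.79 ± 0.60 in control and 1.39 ± 0.71 in MIA offspring. It shares 12.5% of its exon length with Exosc9 on the opposite strand, which had 0.71 and 0.74. Exosc9 averaged 10.7 CPM over batch 1, against 0.875 CPM for Ccna2, and the part of shared reads was not tested. Cdk1, the mitotic kinase, had 0.15 ± 0.62 and -0.44 ± 0.80, and Aurkb, of the chromosomal passenger complex, 0.50 ± 0.80 and 0.86 ± 1.11. The untested genes had, over the control saline and then the control LPS libraries, 16 and 20 counts for Ccnb1, cyclin B1. They had 28 and 5 for Birc5, survivin of the passenger complex, and 13 and 10 for Bub1, a checkpoint kinase. Aurka, the spindle pole kinase, had 11 and 37 counts, and the polo kinase gene Plk1 34 and 18. Changes of these genes were not detectable at this depth unless large.

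Summed over their 11 genes, the replication and mitosis genes can be set beside each other by library. The replication sum was 67.1 ± 6.72 CPM in control saline (SD, n = 6) and 101 ± 11.9 CPM in control LPS (n = 5), and no LPS library reached down to a saline library. The mitosis sum was 9.77 ± 2.68 and 8.85 ± 3.15 CPM, with ranges of 5.13 to 12.2 and 6.07 to 12.7 CPM that overlapped almost fully. In MIA offspring the replication sum was 64.1 ± 8.53 CPM (n = 5) and 103 ± 20 CPM (n = 3), and the mitosis sum 8.75 ± 2.08 and 10.3 ± 3.22 CPM. The mitosis sum as a percentage of the replication sum was 14.7 ± 4.36% in control saline and 8.78 ± 3.02% in control LPS, and 14.1 ± 4.33% and 10.7 ± 5.88% in MIA offspring, each with overlapping ranges. No test was made of these sums, which weigh abundant genes most. Over the same libraries the sum of 11 neural progenitor and neuroblast markers, cells that also divide in the adult brain, was 38.9 to 53.3 CPM in control saline and 15.5 to 23.4 CPM in control LPS. Of these markers 5 could be tested, and in control offspring 1 was called lower (Sox4), 1 higher (Cd24a) and 3 were not called. Their part in the Mki67 value was not tested.

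**Figure D4:**
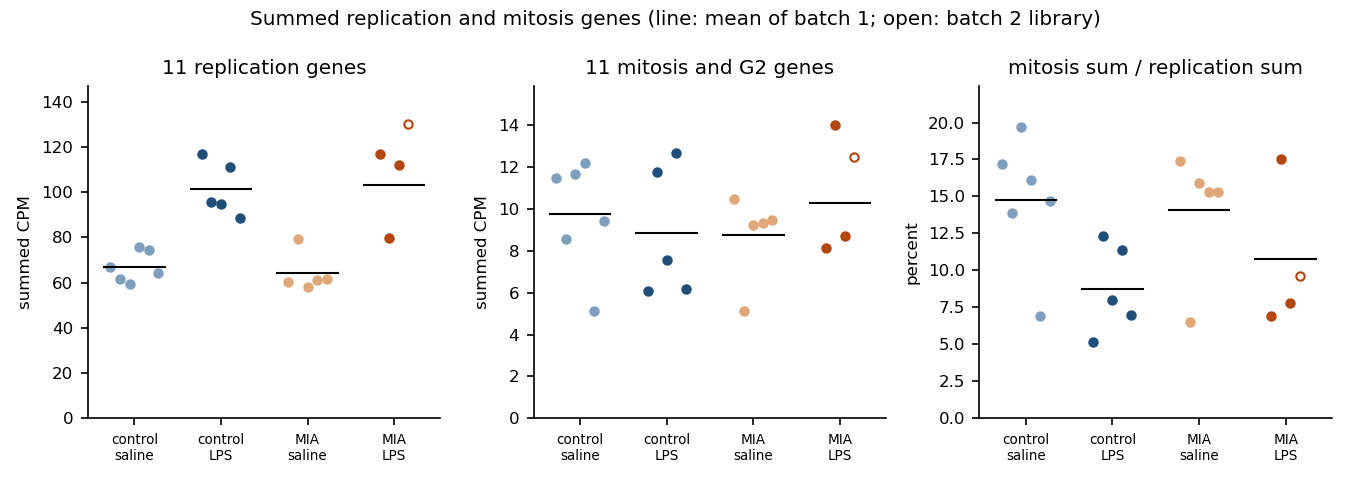
Summed CPM of the 11 replication genes, of the 11 mitosis and G2 genes, and the mitosis sum as a percentage of the replication sum, in each library by group, with batch 1 means as lines and the batch 2 library as an open circle. The replication sum is 59.3 to 75.7 CPM in control saline and 88.5 to 117 CPM in control LPS libraries, while the mitosis sums overlap.

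Other genes of the same pathways, outside the 38, were counted from wider lists. Of 48 further replication genes tested, 20 were higher and 0 lower in control offspring (41.7% and 0%, beside 23.3% and 21.3% of all genes), and 17 were higher and 1, Lig1, was lower in MIA offspring (35.4% and 2.08%, beside 20.8% and 18.3%). Their medians were 0.56 and 0.41. With RLE scaling, upper quartile scaling or DESeq2, 3 of them were called lower in control offspring, and 12 were called higher with a minimum count of 50. Among genes whose log2 CPM averaged 1 or more, the largest rises in control offspring were Dna2, a nuclease and helicase that processes Okazaki fragments, Prim1, the catalytic primase subunit, and Pold2, a subunit of polymerase delta. Dna2 went from 0.722 ± 0.478 CPM in control saline (SD, n = 6) to 19.6 ± 4.69 CPM in control LPS (n = 5), a log2 fold change of 4.75 ± 0.38 (edgeR adjusted p = 3.92e-10), and had 4.12 ± 0.41 (adjusted p = 2.86e-08) in MIA offspring. Prim1 had 1.93 ± 0.39 in control (adjusted p = 2.11e-04) and 1.33 ± 0.47 in MIA offspring (adjusted p = 0.0247). The Prim1 call in MIA offspring was lost with the ID number as a random block (1.20) and without MIA LPS replicates 1 or 3 or MIA saline replicates 2 or 3 (1.05 to 1.25). Pold2 had 1.23 ± 0.37 (adjusted p = 0.00879) and 0.97 ± 0.43 (adjusted p = 0.0771), and its control value was not called with no batch term.

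Of 44 further mitosis genes tested, 9 were higher and 6 lower in control offspring (20.5% and 13.6%, beside 23.3% and 21.3% of all genes). In MIA offspring 8 were higher and 3 lower (18.2% and 6.82%, beside 20.8% and 18.3%). The medians were 0.17 and 0.11. The higher ones were 5 in control offspring with a minimum count of 50, and the lower ones 3 without control LPS replicate 3 and 3 without the batch term. In MIA offspring the higher ones were 4 without MIA saline replicate 1, 5 without MIA saline replicate 2 and 5 without MIA LPS replicate 1, and 4 with no filter or a minimum count of 50. Kif2c, a microtubule-depolymerizing kinesin of the centromere, went from 0.535 ± 0.379 CPM in control saline (SD, n = 6) to 9.98 ± 1.97 CPM in control LPS (n = 5), at 4.24 ± 0.38 on the log2 scale (edgeR adjusted p = 1.10e-09) and 3.89 ± 0.43 in MIA offspring (adjusted p = 6.45e-08). Ckap2l, a spindle protein gene, had 1.44 ± 0.39 (adjusted p = 0.00399) and 1.27 ± 0.45 (adjusted p = 0.0265). The control call of Ckap2l was lost with the ID number as a random block (1.06) and with no batch term, and the MIA call with no filter, with no batch term (0.87) and without MIA LPS replicate 1 or MIA saline replicates 1 or 3 (1.02 to 1.21). Incenp, the scaffold of the chromosomal passenger complex, had 1.14 ± 0.23 (adjusted p = 1.61e-04) and 1.42 ± 0.27 (adjusted p = 1.14e-04). At the same cutoff, lower genes were Ncaph, a condensin subunit, at -1.80 ± 0.24 (adjusted p = 8.16e-07) and -2.46 ± 0.32 (adjusted p = 7.55e-07), and Hjurp, the chaperone of the centromeric histone, at -0.61 ± 0.14 and -0.61 ± 0.18, the latter not called without MIA LPS replicate 3 (-0.48) or with no batch term (-0.40). Ckap5, a microtubule polymerase gene, was at -0.30 ± 0.12 in control (adjusted p = 0.0419) and -0.17 ± 0.14 in MIA offspring (adjusted p = 0.376). The Ckap5 call was lost in 11 of 32 alternatives, among them limma-voom, the ID number as a random block and 7 of the libraries left out.

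**Figure D5:**
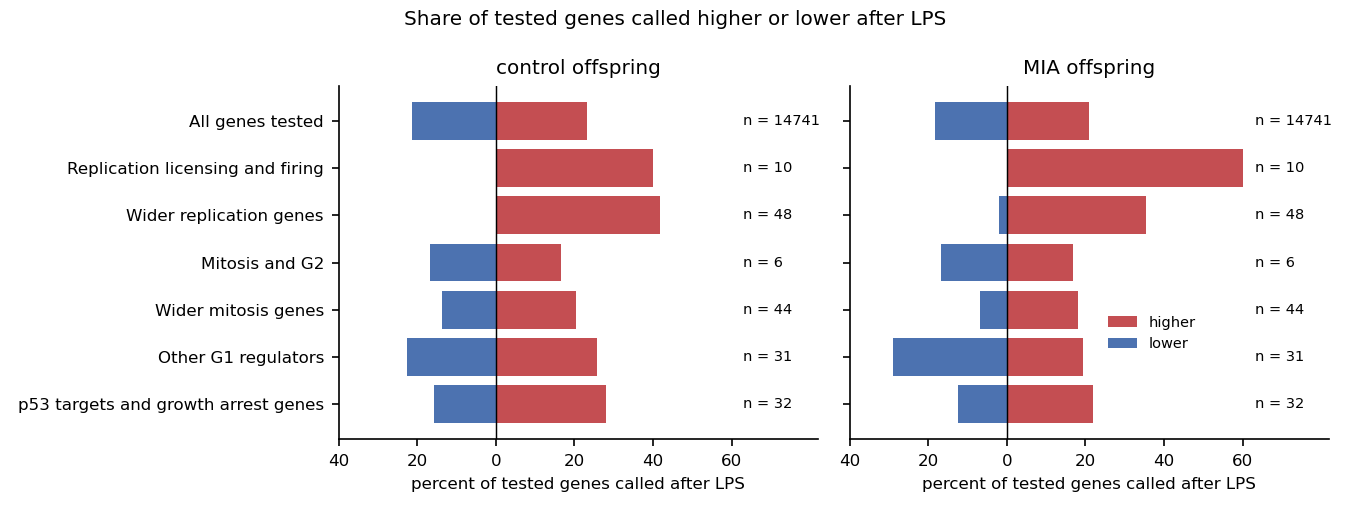
Percentage of tested genes called higher (red, to the right) or lower (blue, to the left) after LPS in control and MIA offspring, for all genes tested, the replication and mitosis members and the wider lists, with the number of genes tested. The replication lists have few or no genes called lower, with 0 of 48 and 1 of 48 in the wider list, while the mitosis lists have genes on both sides.

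Other regulators of the G1 step were called in shares near those of all genes, except for a larger share called lower in MIA offspring. Of 31 tested, 8 were higher and 7 lower in control (25.8% and 22.6%, beside 23.3% and 21.3%) and 6 higher and 9 lower in MIA offspring (19.4% and 29%, beside 20.8% and 18.3%), and the lower ones in MIA offspring were 5 without MIA LPS replicate 3. Myc, a transcription factor that drives growth, rose by 1.70 ± 0.20 in control and 1.32 ± 0.23 in MIA offspring on the log2 scale (edgeR adjusted p = 1.84e-07 and 7.11e-05). Cks1b, a CDK-binding subunit, rose by 1.78 ± 0.38 and 1.62 ± 0.44, and Cdkn2d, which encodes the CDK4 and CDK6 inhibitor p19, by 1.71 ± 0.24 and 2.41 ± 0.29. Lower were Cdkn1c, which encodes the inhibitor p57, at -2.34 ± 0.39 and -2.07 ± 0.48, and Rbl1, the RB relative p107, at -1.39 ± 0.18 and -1.73 ± 0.23. E2f3, an activating E2F factor, was at -1.14 ± 0.16 in control and -1.17 ± 0.20 in MIA offspring. The edgeR adjusted p of these 5 genes was at most 0.0042.

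Targets of p53, the usual inducer of Cdkn1a, and other growth arrest genes were called in shares near the background. Of 32 tested, 9 were higher and 5 lower in control offspring (28.1% and 15.6%, beside 23.3% and 21.3% of all genes). In MIA offspring 7 were higher and 4 lower (21.9% and 12.5%, beside 20.8% and 18.3%). The medians were 0.03 and 0.06. With DESeq2 the lower ones were 9 and 8, with RLE or upper quartile scaling 8 and 7, and with no batch term 3 and 7. Fas, a death receptor gene, rose by 3.42 ± 0.47 in control (edgeR adjusted p = 1.22e-06) and 2.30 ± 0.51 in MIA offspring (adjusted p = 7.54e-04), and Aen, an apoptosis nuclease gene, by 1.45 ± 0.22 and 1.80 ± 0.27. Gadd45a, a stress sensor gene, rose by 1.23 ± 0.33 in control (adjusted p = 0.00383) and stood at 0.15 ± 0.39 in MIA offspring (adjusted p = 0.805). Lower were Ccng2, cyclin G2, at -1.22 ± 0.16 and -0.84 ± 0.20, and, in control offspring, the stress-response gene Sesn1 at -0.89 ± 0.31 (adjusted p = 0.0242) and the antiproliferative gene Tob1 at -0.71 ± 0.24 (adjusted p = 0.0195). In MIA offspring Sesn1 was at 0.10 ± 0.36 (adjusted p = 0.854) and Tob1 at -0.64 ± 0.29 (adjusted p = 0.0853). The control call of Sesn1 was lost without control LPS replicates 1, 3 or 4 (-0.80 to -0.87) and with no filter, and that of Tob1 without control LPS replicate 2 (-0.63) or control saline replicate 4 (-0.58) and with no batch term. The Sesn1 value in MIA offspring rested on MIA LPS replicate 2, and was -0.88 without it.

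Promoter windows were searched for motifs known from replication and from mitosis genes. Windows from 250 bases before to 50 after the start were taken from RefSeq on GRCm38.p6, and 30 of the 38 members had one, all but Mcm4, Gins2, Ccnd1, Ccnd2, Ccne2, Rb1, Ccna2 and Aurkb. They were searched on both strands for E2F-like motifs (TTTCCCGC, TTTGGCGC, TTTCGCGC or TTTGCCGC) and for the CHR motif of G2 and mitosis genes (TTTGAA). Mcm6 and Cdt1, which rose, and Mki67 and Bub1b, which moved in opposite directions, are printed with every match in capitals. Mcm6 lies at chr1:128359656-128359955, minus strand, Cdt1 at chr8:122567765-122568064, plus strand, Mki67 at chr7:135716330-135716629, minus strand and Bub1b at chr2:118597961-118598260, plus strand.
Mcm6: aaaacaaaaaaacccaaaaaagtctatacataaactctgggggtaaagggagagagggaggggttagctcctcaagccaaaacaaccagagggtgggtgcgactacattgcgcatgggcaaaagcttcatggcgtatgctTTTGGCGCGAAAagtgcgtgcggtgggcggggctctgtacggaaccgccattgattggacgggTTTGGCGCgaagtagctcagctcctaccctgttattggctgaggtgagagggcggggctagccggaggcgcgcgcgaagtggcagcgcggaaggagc
Cdt1: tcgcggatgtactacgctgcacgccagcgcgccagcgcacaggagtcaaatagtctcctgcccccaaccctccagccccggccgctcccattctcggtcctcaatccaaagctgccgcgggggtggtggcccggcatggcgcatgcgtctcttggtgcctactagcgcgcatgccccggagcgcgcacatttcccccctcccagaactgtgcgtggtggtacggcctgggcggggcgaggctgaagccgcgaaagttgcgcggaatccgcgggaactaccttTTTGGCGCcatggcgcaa
Mki67: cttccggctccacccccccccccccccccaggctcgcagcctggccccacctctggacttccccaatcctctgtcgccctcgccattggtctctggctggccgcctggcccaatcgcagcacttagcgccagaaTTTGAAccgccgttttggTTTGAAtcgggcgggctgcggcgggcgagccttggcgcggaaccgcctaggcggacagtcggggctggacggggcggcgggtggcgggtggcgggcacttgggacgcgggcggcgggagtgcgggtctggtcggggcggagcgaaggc
Bub1b: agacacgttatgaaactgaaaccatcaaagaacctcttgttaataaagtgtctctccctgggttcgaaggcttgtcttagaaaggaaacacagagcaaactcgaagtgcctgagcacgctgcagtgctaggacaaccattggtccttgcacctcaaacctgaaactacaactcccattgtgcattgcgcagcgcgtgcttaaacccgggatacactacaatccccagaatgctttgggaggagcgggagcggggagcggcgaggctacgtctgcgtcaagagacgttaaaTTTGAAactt
Mcm6 holds 3 E2F matches, of which the first 2 overlap on opposite strands, and Cdt1 holds 1. Mki67 holds 2 CHR matches and Bub1b 1, although Mki67 fell and Bub1b rose after LPS. An E2F match was found for 6 of 9 replication genes (Cdc6, Cdt1, Mcm3, Mcm5, Mcm6 and Mcm7) and 1 of 9 mitosis genes (Cdk1), against 2.26% of all 32851 promoter windows. A CHR match was found for 6 of 9 mitosis genes (Aurka, Bub1b, Cdk1, Mki67, Plk1 and Top2a) and 2 of 9 replication genes (Cdc45 and Mcm2), against 17.9% of all windows. A gene with several windows counted if any of them matched, and no E2F match overlapped a CHR match. Of the 6 replication genes with an E2F match, Cdt1 and Mcm6 were called higher after LPS, while Mcm3, Mcm5 and Mcm7 were not called and Cdc6 was untested. Pcna, called higher in both kinds of offspring, and Mcm2, called in MIA offspring, had windows without an E2F match. Mcm4 and Gins2, also called, had no window. A match is a run of letters and not a measured binding site.

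No member was called between MIA and control offspring. These comparisons ask whether offspring of immune-activated dams differ at rest, after LPS, or in their response to LPS. edgeR called 0 of 29 members for the difference of responses (0% of all genes), 0 for MIA against control after saline (0%) and 0 for MIA against control after LPS (0%). At an unadjusted p under 0.05 there were 3 members of 29 for the difference of responses (491 of 14741 genes), 1 after saline (415 genes) and 1 after LPS (825 genes). DESeq2 and limma-voom called 0 members in each, while DESeq2 called 6 of all genes after saline. They share libraries with each other and with the LPS comparisons.

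The members with an unadjusted p under 0.05 were Top2a, Cdk6 and Rb1. For Top2a, 4 of 5 MIA saline libraries lay below all control saline libraries, at a log2 difference of -1.26 ± 0.42 (edgeR adjusted p = 1). Its response to LPS differed by 1.83 ± 0.63 (adjusted p = 1). The value was 1.34 to 2.34 over the alternatives and was not called in any of 30 of them, with the lowest without MIA LPS replicate 2. The Cdk6 difference of MIA LPS from control LPS was 0.80 ± 0.26 (adjusted p = 0.699), and 0.06 without MIA LPS replicate 2. Its response differed by 0.89 ± 0.34, and by 0.16 without that library. The Rb1 response differed by -0.46 ± 0.19 (adjusted p = 1).

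For Ccnd2, Cdkn1a, Bub1b, Mcm6, Cdt1 and Mki67, which were called after LPS in both kinds of offspring, the difference of responses is given with its interval. It was 0.61 ± 0.62 for Ccnd2, with a 95% interval from -0.70 to 1.92, and 0.20 ± 0.29 for Cdkn1a, from -0.43 to 0.83. For Bub1b it was 0.11 ± 0.80, from -1.59 to 1.81. It was -0.42 ± 0.29 for Mcm6, from -1.04 to 0.21, -0.04 ± 0.45 for Cdt1, from -1 to 0.91, and 0.05 ± 0.43 for Mki67, from -0.86 to 0.97. Cdkn1a was higher in all 3 MIA LPS libraries of batch 1 than in all 5 control LPS libraries, at a difference of 0.44 ± 0.22 that was not called (edgeR adjusted p = 0.892). The batch 2 library was lower, at 151 CPM. These intervals are wide, and a p that misses the threshold does not show that the responses were alike.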

How the data were processed

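The table holds expected counts per gene, as deposited by the authors, from bulk RNA-seq of sorted striatal microglia in 21 libraries. Per the submitters' processing notes the tools were STAR, RSEM and DESeq2, with no version or role stated. The build and the gene annotation were not given in the sources used here. Among all values 6.27% were not whole, and all were rounded to whole counts. Identifiers were matched to GENCODE M21, with 55227 matched and 260 not. Genes were kept by edgeR's filter (minimum count 10, minimum total 15), which left 14741. The edgeR quasi-likelihood test (edgeR 4.0.16, limma 3.58.1, DESeq2 1.42.0, R 4.3.3) used TMM scaling, the 4 groups and a batch term over 20 libraries, with Benjamini-Hochberg adjustment over all genes and a threshold of 0.05, and was tested on simulated data. CPM were computed on TMM-scaled library totals without a prior count. CPM per kb divide by the merged length of all exons annotated for a gene in GENCODE M21. The library titled as excluded (5.29 M counts) was left out. No pair of replicates agreed within sampling noise (the lowest chi-square per degree of freedom was 9.58). The members and gene lists were chosen with earlier results of these data known. Values in every library are given for members called in an LPS comparison, up to 3 per role by size of change, and for Mki67, Top2a, Cdkn1a, Ccnd1, Ccnd2, Ccnd3, Mcm6 and Pcna. From each wider list up to 3 rises and 3 falls among genes called in control offspring whose log2 CPM (prior count 2) averaged 1 or more are named. Alternatives covered scaling, DESeq2, limma-voom, low-count filters, the batch term, the left-out library, replicate or ID number as a block, the most abundant gene left out, the 2 groups alone and each library left out.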

Additional observations from a re-analysis of the deposited data

Results flagged for a closer look

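In 17 of 116 groups of 4 or more libraries (14.7%), the CPM of a member had a library far from the others by Dixon's test, which flags about 1 group in 20 by chance. The batch 2 library, MIA LPS replicate 4, accounts for 4 of them. Its Mcm6 was 33.0 CPM against 10.1 to 12.7 in the other MIA LPS libraries, its Cdt1 was 14.9 against 4.48 to 5.92, its Rrm1 was 59.5 against 15.6 to 19.5, and its Cdk4 was 77.9 against 41.4 to 46.4.

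Of the other replication and nucleotide genes, Cdc45 was at 1.41 CPM in control saline replicate 1 against 0 to 0.525 in the rest of the group. Gins2 was at 6.7 CPM in control saline replicate 5 against 1.47 to 3.1, and at 8.23 CPM in control LPS replicate 1 against 4.25 to 5.4. Pcna was at 36.3 CPM in control saline replicate 4 against 25.8 to 28.7, and at 40.4 CPM in MIA saline replicate 2 against 26.5 to 28.8. Rrm1 was low in MIA saline replicate 3, at 12.6 CPM against 18.3 to 20.3. Tyms was at 7.98 CPM in control saline replicate 6 against 4.84 to 5.87.

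Among kinases and inhibitors, Cdk6 was at 255 CPM in MIA LPS replicate 2 against 70.7 to 99.8, and low in control LPS replicate 4 at 62.1 CPM against 82 to 89.9. Cdkn1a was low in control LPS replicate 3, at 137 CPM against 201 to 225. Cdkn2c was low in control saline replicate 3, at 1.67 CPM against 2.71 to 2.82. Of the mitosis genes, Ccna2 was at 2.53 CPM in control LPS replicate 2 against 0.561 to 0.934, and Cdk1 at 1.58 CPM in MIA saline replicate 1 against 0.338 to 0.6.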

How the results depend on the processing

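Over 145 results (29 tested members in 5 comparisons) and 4556 alternative values, none of the called values changed sign. Of 26 called results 19 were called in every alternative, and of 119 uncalled results 9 were called in at least 1. With no batch term 3 members were called lower in control offspring after LPS, against 5. For the difference of responses, where no gene was called, 1 of all genes was called with the ID number as a random block and 0 to 2 when each library was left out, with 2 without MIA LPS replicate 1. DESeq2 called 6 genes between MIA and control saline, and leaving out each library gave 0 to 4 genes between MIA and control LPS, with 4 without MIA LPS replicate 1. Sesn1 after LPS in MIA offspring, at 0.10, was -0.75 by limma-voom and -0.88 to 0.49 when each library was left out. In most of these cases the cause was not tested; the Sesn1 value turned on MIA LPS replicate 2.

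With the replicate number as a replicate block, 9 members were higher and 5 lower in control, and 11 higher and 3 lower in MIA offspring after LPS, among 6295 and 5540 genes called. Cdc45 in control (1.97) and Top2a in MIA offspring (1.53) were called under it, and Ckap2l in MIA offspring (1.08) was not. The numbers were not taken to pair samples: deviations of same-numbered libraries correlated at -0.136 to 0.222 (median 0.03, 24 pairs, 5 over 0.1), against a median of -0.009 in 109 other pairs. In 10 pairs of libraries that share an ID number the correlations were -0.018 to 0.205 (median 0.041). The fit with the ID number as a random block estimated a correlation of 0.084 within it. RLE and upper quartile scaling shifted the median of all genes by -0.08 and -0.09 in control offspring. The median standard error was 0.22 in control and 0.27 in MIA offspring, and 9 members were too low to test.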
